A study of Mus musculus with 4 samples.

Results

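Crystallins are the abundant water-soluble proteins of the lens, and their genes fall into 3 structural classes. Alpha crystallins belong to the small heat shock proteins and act as chaperones that hold unfolding proteins in solution. Beta and gamma crystallins form a separate superfamily built from Greek key domains and give the lens its refractive power. Several of them are also transcribed outside the lens, and in the retina alpha-B crystallin is known from glia and from stressed cells.

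The crystallins described here were 10 genes chosen by name without use of their values, namely the alpha crystallins Cryaa and Cryab, the beta crystallins Cryba1, Cryba2, Cryba4, Crybb1, Crybb2 and Crybb3, and the gamma crystallins Crygs and Crygn. All 10 had a row among the 21830 genes of the series, and all 10 had OK status in every library. Poly(A) RNA was sequenced from mouse retinal cells at postnatal day 12. Cells had been sorted into a Cd73-positive fraction (Cd73P), which holds rods and their precursors, and a Cd73-negative fraction (Cd73N), which holds the remaining neurons and glia. Each fraction came from wild-type mice (WT) and from Ezh2-cKO mice on the slc:ICR background, so that there were 4 libraries with 1 library in each group. In Ezh2-cKO mice a floxed Ezh2, the methyltransferase of Polycomb complex PRC2, was deleted with a DKK3-Cre transgene that is active in retinal progenitors, so the deletion is not particular to a lineage. Controls were normal littermates, and the number of retinas behind these libraries is not given in the sources used here.

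Levels are FPKM, fragments per kilobase of exon scaled to the mapped fragments of the library. Differences are of log2(FPKM + 1), which understates the change of low genes, and a gene counts as higher or lower past a 1.5-fold difference on that scale, a log2 difference of 0.585. With 1 library per group there is no replicate check and no p-value. Each standard error (SE) and each pair of deposited bounds covers counting error only. Depth, taken from the width of the bounds over 3509 genes, was at most 1.18 times that of Cd73N WT. The fraction labels were borne out by Nt5e, which encodes Cd73, at 0.84 FPKM (WT) and 0.61 FPKM (Ezh2-cKO) in Cd73N, and at 125 and 123 FPKM in Cd73P. Gene-level Ezh2 was at 14.1 FPKM in Cd73N WT and 15.9 FPKM in the Cd73N library labelled Ezh2-cKO, against the label, and at 5.38 and 3.45 FPKM in Cd73P. This gene-level value cannot tell a transcript without the floxed exons from a whole one. The genotypes also differed in sex-linked transcripts, with Xist at 52.2 and 240 FPKM and Ddx3y at 11.6 and 0.70 FPKM in Cd73N WT and Ezh2-cKO, so genotype and the sex of the animals cannot be told apart.

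Among the 10 crystallins, Cryab stood alone in level. The summed FPKM of the 10 genes was 31.1 in Cd73N WT, 88.1 in Cd73N Ezh2-cKO, 4.18 in Cd73P WT and 5.91 in Cd73P Ezh2-cKO. Cryab held 83.8%, 94.3%, 57.8% and 91.4% of these sums. Without Cryab, the sum of the other 9 genes was 5.05 FPKM in Cd73N of either genotype, 1.77 FPKM in Cd73P WT and 0.51 FPKM in Cd73P Ezh2-cKO. Only 5 of the 10 genes reached 1 FPKM in any library: Cryab, Cryba1, Cryba2, Crybb1 and Crybb3. The sum without Cryab was thus level between the genotypes in Cd73N, although Cryba1 and Cryba2 were lower in Ezh2-cKO and Crybb1 had a higher value there.

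**Figure D1:**
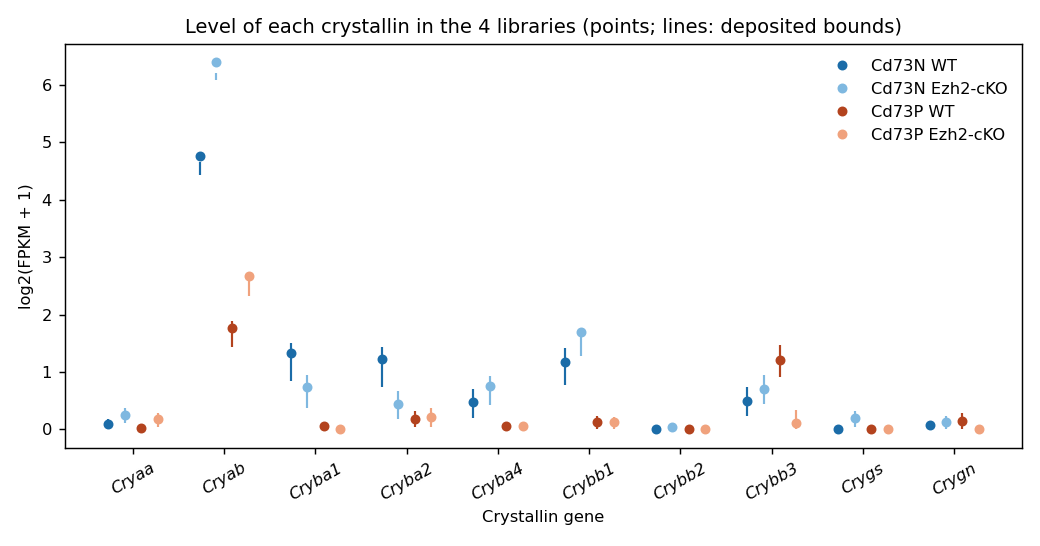
Level of each crystallin as log2(FPKM + 1) on the vertical axis, with 1 point per library (blue, Cd73N; red, Cd73P; dark, WT; light, Ezh2-cKO) and vertical lines for the deposited FPKM bounds. Cryab reaches 26.1 FPKM in Cd73N WT and 83.0 FPKM in Cd73N Ezh2-cKO, and the next highest value is that of Crybb1 at 2.23 FPKM.

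Cryab encodes alpha-B crystallin, a small heat shock protein made in many tissues. It lies on mm9 chromosome 9 from 50560863 to 50564738 on the plus strand and is protein coding. Its level was 26.1 FPKM in Cd73N WT, 83.0 in Cd73N Ezh2-cKO, 2.42 in Cd73P WT and 5.40 in Cd73P Ezh2-cKO. The order was the same in each pairing, with Ezh2-cKO above WT within a fraction and Cd73N above Cd73P within a genotype. Ranked among all genes with OK status, Cryab stood at the 85.8 percentile in Cd73N WT and at the 96.2 percentile in Cd73N Ezh2-cKO. In Cd73P it stood at the 58.2 and 66.6 percentiles. The bounds imply about 630 and 2585 fragments in the Cd73N libraries and about 75.5 and 154 in the Cd73P libraries, so counting error was small. The FPKM of Cryab lay above its own upper bound in both Cd73N libraries (24.2 and 72.7), as it did for 25.0% to 27.8% of gene rows with FPKM above 1 in each library.

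The genotypes were compared first within Cd73N. Cryab was the single crystallin past the threshold upward in Ezh2-cKO, with a log2 difference of 1.63 (SE 0.053), a 3.18-fold ratio of FPKM. Over all genes compared, 7.18% were past the threshold in that direction. Downward, 2 of the 10 crystallins were past it, Cryba1 and Cryba2, where 1.71% of all genes were. The median log2 difference of the 10 crystallins was 0.17, beside 0.00 over all genes. In Cd73P, Cryab was again the single crystallin past the threshold upward, with a log2 difference of 0.91 (SE 0.138) and a ratio of 2.23. The background there was 2.26% upward. Crybb3 was the single member past it downward, against a background of 2.38%. The bounds of the genotypes did not overlap for Cryab in either fraction. Whether its genotype difference was larger in Cd73N than in Cd73P was not tested. Among genes with at least 1 FPKM in 1 of the 2 libraries, the same crystallins were past the threshold, of 4 left in Cd73N and 2 left in Cd73P. The background shares were then 11.6% upward and 2.87% downward in Cd73N and 4.32% and 4.53% in Cd73P.

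The fractions were then compared within each genotype. In WT, 4 crystallins were past the threshold toward Cd73N (Cryab, Cryba1, Cryba2 and Crybb1), against 27.9% of all genes, and Crybb3 alone was past it toward Cd73P, against 9.07%. In Ezh2-cKO, 5 crystallins were past it toward Cd73N (Cryab, Cryba1, Cryba4, Crybb1 and Crybb3), against 29.1% of all genes. None was past it toward Cd73P, against 8.4%. With the filter of 1 FPKM the shares of all genes were 15.4% toward Cd73P and 45.9% toward Cd73N in WT, and 13.8% and 45.6% in Ezh2-cKO. Of the 5 crystallins left by the filter in WT, 4 were past the threshold toward Cd73N and 1 toward Cd73P. In Ezh2-cKO only 2 were left, Cryab and Crybb1, and both were past it toward Cd73N. On the log2(FPKM + 1) scale, Cryab had the largest difference among the 10 in both genotypes. Its log2 difference of Cd73P over Cd73N was -2.99 (SE 0.117) in WT and -3.71 (SE 0.0903) in Ezh2-cKO. The FPKM of Cryab was 10.8-fold and 15.4-fold higher in Cd73N. The FPKM ratio toward Cd73N was larger for Cryba1 (33.7) and Crybb1 (12.9) in WT. In Ezh2-cKO it was larger for Crybb1 (23.7) and Cryba4 (18.0), and Cryba1, listed at 0 in Cd73P, gave no ratio. These genes were at 0.097 FPKM or below in Cd73P, with lower bounds of 0. The member medians were -0.24 and -0.41, and the medians over all genes were -0.05 and -0.09. These comparisons share libraries with the genotype comparisons and are not independent of them.

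**Figure D2:**
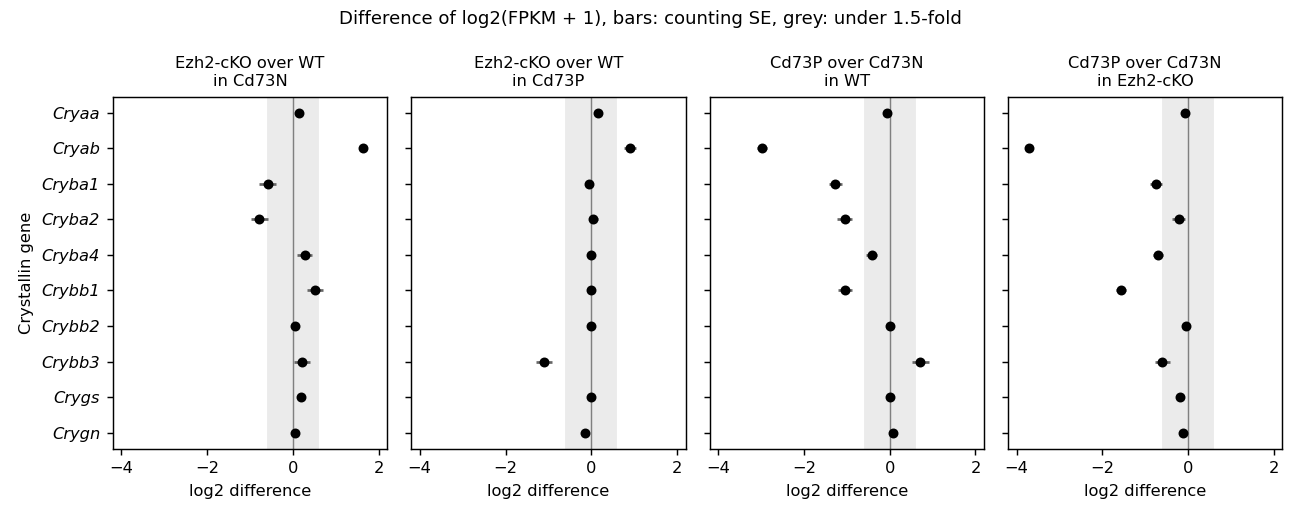
Difference of log2(FPKM + 1) on the horizontal axis for each crystallin in the 4 comparisons, with bars for the counting SE and grey for less than 1.5-fold. Cryab lies at 1.63 and 0.91 in the genotype comparisons, and Crybb3 changes side between fractions and between genotypes.

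Markers of several other cell types moved with Cryab, among them those of Müller glia, the radial glia of the retina. In Cd73N, 12 of 12 Müller glia markers were past the threshold upward in Ezh2-cKO, and their summed FPKM was 1278 in WT and 6111 in Ezh2-cKO. In Cd73P, 8 of 12 were past it upward, with sums of 277 and 455 FPKM. Over all genes, 7.18% were past it upward in Cd73N and 2.26% in Cd73P. Toward Cd73N, 11 of 12 markers were past the threshold in WT and 12 of 12 in Ezh2-cKO, against 27.9% and 29.1% of all genes. Among these markers, Glul, which encodes glutamine synthetase, was at 257 and 1760 FPKM in Cd73N and at 32.8 and 63.9 FPKM in Cd73P, in the order WT and Ezh2-cKO. Astrocyte and microglia markers had the same order of sums over the libraries as Cryab, with 68.1, 139, 35.1 and 47.3 FPKM for 6 astrocyte markers and 100.4, 147, 20.7 and 27.3 FPKM for 8 microglia markers, in the order Cd73N WT, Cd73N Ezh2-cKO, Cd73P WT and Cd73P Ezh2-cKO. In Cd73N, 4 of each list were past the threshold upward in Ezh2-cKO, and in Cd73P none was. Of 9 cone markers, 3 were past it upward in Cd73N and 7 downward in Cd73P, against 7.18% and 2.38% of all genes. The part of these cell types in the Cryab difference was not tested. In sorted bulk RNA, more cells of a type and more RNA per cell cannot be told apart. The 5 genes whose profile over the 4 libraries was closest to that of Cryab, by Euclidean distance of mean-centred log2(FPKM + 1) among 7599 genes, were Espn, S100a16, Crip2, Rrh and Prelp, with distances from 0.0838 to 0.24. Espn was at 19.6, 62.2, 1.41 and 3.68 FPKM in the order Cd73N WT, Cd73N Ezh2-cKO, Cd73P WT and Cd73P Ezh2-cKO. The likeness rests on 4 libraries and is given as a description.

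Cryab has a close neighbour of its own family. Hspb2, which encodes another small heat shock protein, lies 404 bases from Cryab. Hspb2 was at 5.82 FPKM in Cd73N WT, 6.38 in Cd73N Ezh2-cKO, 0.12 in Cd73P WT and 0.89 in Cd73P Ezh2-cKO. In Cd73N its log2 difference between genotypes was 0.11 (SE 0.168), where that of Cryab was 1.63. In Cd73P it was 0.75 (SE 0.21). Of the 7 other small heat shock protein genes listed, none was past the threshold between genotypes in Cd73N, and Hspb2 alone was past it in Cd73P. The shares of all genes upward were 7.18% and 2.26%. Hspb6 had the highest level of the 7, with 84.7, 88.1, 62.3 and 74.8 FPKM in the same library order, and none of its 4 differences passed the threshold. Hspb1, whose product is induced by heat and injury, was at 2.28 and 1.78 FPKM in Cd73N and at 0.31 and 0.21 FPKM in Cd73P.

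Cryaa encodes alpha-A crystallin, the lens-enriched partner of alpha-B crystallin, and lies on chromosome 17 from 31814890 to 31818669. It was at 0.067 FPKM in Cd73N WT, 0.19 in Cd73N Ezh2-cKO, 0.022 in Cd73P WT and 0.13 in Cd73P Ezh2-cKO. The lower bound was 0 in both WT libraries, which corresponds to at most about 4 fragments. In the Ezh2-cKO libraries the bounds imply about 11.8 and 7.8 fragments. Its bounds overlapped between the genotypes in each fraction. The alpha crystallin signal of these libraries was therefore almost all Cryab.

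The beta crystallins are shown next with the sequence before their starts, because this is where lens regulators of the Maf family bind crystallin genes and because these members differed in direction. The 250 bases before the start were taken for Cryba1, Cryba2, Cryba4, Crybb1 and Crybb3 from RefSeq on GRCm38.p6, a later build than the mm9 of the expression files, and are printed 5′ to 3′ on the strand of the gene. Capitals mark matches on either strand to TGCTGA, the core of the Maf recognition element, or to TATAAA, the TATA box.
Cryba1, chr11:77725294-77725543, minus strand: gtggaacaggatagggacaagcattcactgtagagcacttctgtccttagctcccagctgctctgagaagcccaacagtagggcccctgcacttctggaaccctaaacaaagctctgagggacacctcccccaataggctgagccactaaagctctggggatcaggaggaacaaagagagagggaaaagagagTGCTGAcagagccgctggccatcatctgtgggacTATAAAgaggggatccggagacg
Cryba2, chr1:74893144-74893393, minus strand: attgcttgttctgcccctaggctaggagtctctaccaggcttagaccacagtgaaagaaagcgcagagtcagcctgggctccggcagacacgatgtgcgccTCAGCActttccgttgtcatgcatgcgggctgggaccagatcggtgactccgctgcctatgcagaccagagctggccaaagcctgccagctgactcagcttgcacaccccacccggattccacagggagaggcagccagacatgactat
Cryba4, chr5:112252519-112252768, minus strand: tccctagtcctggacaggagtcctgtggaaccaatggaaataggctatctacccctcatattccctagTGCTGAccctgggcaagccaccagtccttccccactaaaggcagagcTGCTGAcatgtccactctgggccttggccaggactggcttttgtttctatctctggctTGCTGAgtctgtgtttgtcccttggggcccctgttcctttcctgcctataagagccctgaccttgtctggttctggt
Crybb1, chr5:112255570-112255819, plus strand: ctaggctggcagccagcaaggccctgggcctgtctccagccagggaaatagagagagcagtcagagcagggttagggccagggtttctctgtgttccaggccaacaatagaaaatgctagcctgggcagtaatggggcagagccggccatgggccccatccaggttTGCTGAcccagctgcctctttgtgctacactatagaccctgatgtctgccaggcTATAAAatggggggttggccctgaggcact
Crybb3, chr5:113081585-113081834, minus strand: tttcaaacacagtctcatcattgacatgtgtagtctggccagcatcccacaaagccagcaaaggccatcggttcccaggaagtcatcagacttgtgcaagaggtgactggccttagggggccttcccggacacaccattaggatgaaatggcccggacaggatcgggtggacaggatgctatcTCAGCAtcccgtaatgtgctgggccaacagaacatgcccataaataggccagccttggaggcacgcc

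The Maf core TGCTGA was found in 8 of the 9 crystallins with an entry in that table, all but Crybb2. Cryab had no entry there. Of all 32851 promoter windows of the same length, 16.1% held it. Cryba4 held 3 matches, which began 182, 135 and 77 bases before its start, and the other 7 genes held 1 each. The matches of Cryba1, Crybb1 and Crybb3 began 57, 84 and 67 bases before the start, the last on the opposite strand. A TATAAA was found in Cryba1, Crybb1 and Crygs and in 12.4% of all windows. The heat shock element GAANNTTC was found in none of the 9 and in 6.69% of all windows. TAATCC, the site of the photoreceptor factors Otx2 and Crx, was found in Crygs alone and in 6.25% of all windows. No match overlapped another. Cryba1, Cryba2, Crybb1 and Crybb3 all held the Maf core. Its part in the direction of their differences was not tested. A match is a description of letters and not of a bound site.

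**Figure D3:**
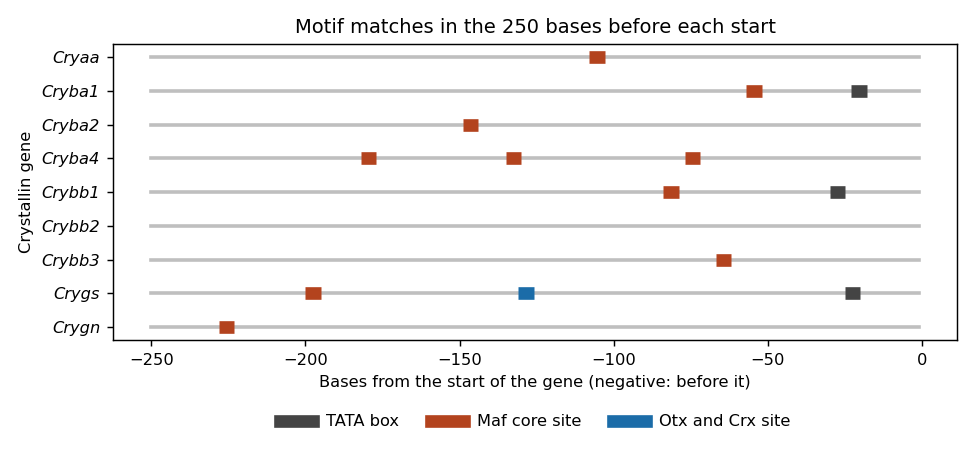
Position of motif matches in the 250 bases before the start of 9 crystallin genes, in bases from the start on the horizontal axis. Maf core matches (red) are seen in 8 of 9 genes, TATA matches (dark grey) in 3 and an Otx and Crx site (blue) in 1.

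Cryba1 and Cryba2, which encode acidic beta crystallins, were the members that were lower in Cd73N Ezh2-cKO. Cryba1 (chromosome 11, 77532234 to 77538795, minus strand) was at 1.53 FPKM in Cd73N WT, 0.68 in Cd73N Ezh2-cKO and 0.045 in Cd73P WT, and was listed at 0 in Cd73P Ezh2-cKO. Its genotype difference in Cd73N was -0.59 (SE 0.202), barely past the threshold and short of it after scaling by the median ratio or the FPKM sum, and its bounds of 0.79 to 1.83 and 0.29 to 0.93 FPKM overlapped. Cryba2 (chromosome 1, 74936518 to 74939709, minus strand) was at 1.34 FPKM in Cd73N WT, 0.36 in Cd73N Ezh2-cKO, 0.13 in Cd73P WT and 0.17 in Cd73P Ezh2-cKO. Its difference in Cd73N was -0.78 (SE 0.199), and the bounds of 0.68 to 1.69 and 0.13 to 0.59 FPKM did not overlap. Both genes were therefore highest in Cd73N WT, unlike Cryab. The bounds imply about 25.3 and 14.7 fragments for Cryba1 and about 21.8 and 9.7 for Cryba2 in Cd73N, in the order WT and Ezh2-cKO. The GENCODE annotation of mm9 has Nufip2 overlapping Cryba1 on the opposite strand, and the protocol does not state that strand was kept. Nufip2 was at 9.40 and 10.5 FPKM in Cd73N and at 22.3 and 18.0 FPKM in Cd73P. Whether reads of Nufip2 entered the Cryba1 values was not tested.

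Cryba4 and Crybb1 are neighbours on chromosome 5 on opposite strands, from 112675553 to 112681522 and from 112684841 to 112698602, with 3319 bases between them. Cryba4, an acidic beta crystallin, was at 0.39 FPKM in Cd73N WT, 0.69 in Cd73N Ezh2-cKO, 0.040 in Cd73P WT and 0.038 in Cd73P Ezh2-cKO. Crybb1, a basic beta crystallin, was at 1.26, 2.23, 0.097 and 0.094 FPKM in the same order. The neighbours thus had the same profile at different levels, highest in Cd73N Ezh2-cKO and near 0 in Cd73P. In Cd73N, the FPKM ratio of Ezh2-cKO to WT was 1.76 for Cryba4 and 1.78 for Crybb1. On the log2(FPKM + 1) scale these were differences of 0.28 (SE 0.176) and 0.52 (SE 0.187), both short of the threshold, and the bounds overlapped for each. With a pseudocount of 0.1 both were past it, at 0.68 and 0.78. Crybb1 was also past it after scaling by the FPKM sum (0.63) and without a pseudocount (0.83). In Cd73P the lower bound was 0 for both genes in both genotypes. Between fractions, Crybb1 was lower in Cd73P by a log2 difference of -1.04 (SE 0.162) in WT and -1.56 (SE 0.117) in Ezh2-cKO.

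Crybb3 and Crybb2, both basic beta crystallins, are neighbours further along chromosome 5, at 113504859 to 113510604 and 113487285 to 113497786, both on the minus strand with 7073 bases between them. Crybb3 was at 0.41 FPKM in Cd73N WT, 0.63 in Cd73N Ezh2-cKO, 1.32 in Cd73P WT and 0.076 in Cd73P Ezh2-cKO. Among the 5 crystallins that reached 1 FPKM, it was the only one that was highest in Cd73P WT. Its difference of Cd73P over Cd73N was 0.72 (SE 0.189) in WT and -0.60 (SE 0.177) in Ezh2-cKO, the latter short of the threshold at -0.58 after scaling by the median ratio. The difference of Ezh2-cKO over WT was 0.21 (SE 0.179) in Cd73N and -1.11 (SE 0.187) in Cd73P. In Cd73P the bounds were 0.87 to 1.78 FPKM in WT and 0 to 0.26 FPKM in Ezh2-cKO, and the WT bounds imply about 34.6 fragments. The change in direction rests on that 1 WT library and was not tested. The gene nearest to Crybb3, 2900026A02Rik, was at 0.63 FPKM in Cd73P WT and 0.39 FPKM in Cd73P Ezh2-cKO and at 1.57 and 3.43 FPKM in Cd73N. Crybb2 was listed at 0 in 3 of the 4 libraries and at 0.035 FPKM in Cd73N Ezh2-cKO.

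The gamma crystallins Crygs (chromosome 16, 22805276 to 22811483) and Crygn (chromosome 5, 24256820 to 24263661) were near 0 throughout. Crygs, the gamma crystallin of the lens cortex, was listed at 0 in 3 libraries and was at 0.14 FPKM in Cd73N Ezh2-cKO, with bounds of 0.025 to 0.26. Crygn was at 0.054 FPKM in Cd73N WT, 0.090 in Cd73N Ezh2-cKO and 0.11 in Cd73P WT, and was listed at 0 in Cd73P Ezh2-cKO. Every lower bound of Crygn was 0, so no difference was detectable at this depth. None of the 4 differences of either gene passed the threshold.

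Lens fibre markers were read beside the crystallins. Of 11 lens fibre markers, 2 reached 1 FPKM in any library, Lenep and Bfsp2, and the list summed to 7.16 FPKM in Cd73N WT, 9.95 in Cd73N Ezh2-cKO, 7.85 in Cd73P WT and 8.16 in Cd73P Ezh2-cKO. Lenep made up most of these sums, with 4.17, 7.02, 7.53 and 7.82 FPKM, and the annotation has it overlapping Flad1 on the same strand. Gja3 and Foxe3 were listed at 0 in all 4 libraries. Lim2 was at 0.098 FPKM or below. Mip, the aquaporin of lens fibres, was at 0.31 and 0.38 FPKM in Cd73N and at 0.045 and 0.033 FPKM in Cd73P. Bfsp1 and Bfsp2, which encode the beaded filament proteins, were at 0.995 and 0.757 FPKM and at 1.48 and 1.07 FPKM in Cd73N, in the order WT and Ezh2-cKO. Grifin was listed at 0 in 3 libraries and at 0.54 FPKM in Cd73N Ezh2-cKO. Upward in Cd73N Ezh2-cKO, 2 of the 11 were past the threshold, Lenep and Grifin, against 7.18% of all genes. The other 3 markers, Birc7, Dnase2b and Lgsn, were at 0.167 FPKM or below. Between the fractions of WT, 2 of the 11 were past the threshold toward Cd73N, Bfsp1 and Bfsp2, against 27.9% of all genes. Lenep was past it toward Cd73P with a log2 difference of 0.72 (SE 0.144), where 9.07% of all genes were. In Ezh2-cKO, 3 were past it toward Cd73N, Bfsp1, Bfsp2 and Grifin, against 29.1% of all genes. None was past it toward Cd73P, against 8.4%. The part of lens fibre transcripts in the levels of the beta crystallins was not tested.

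**Figure D4:**
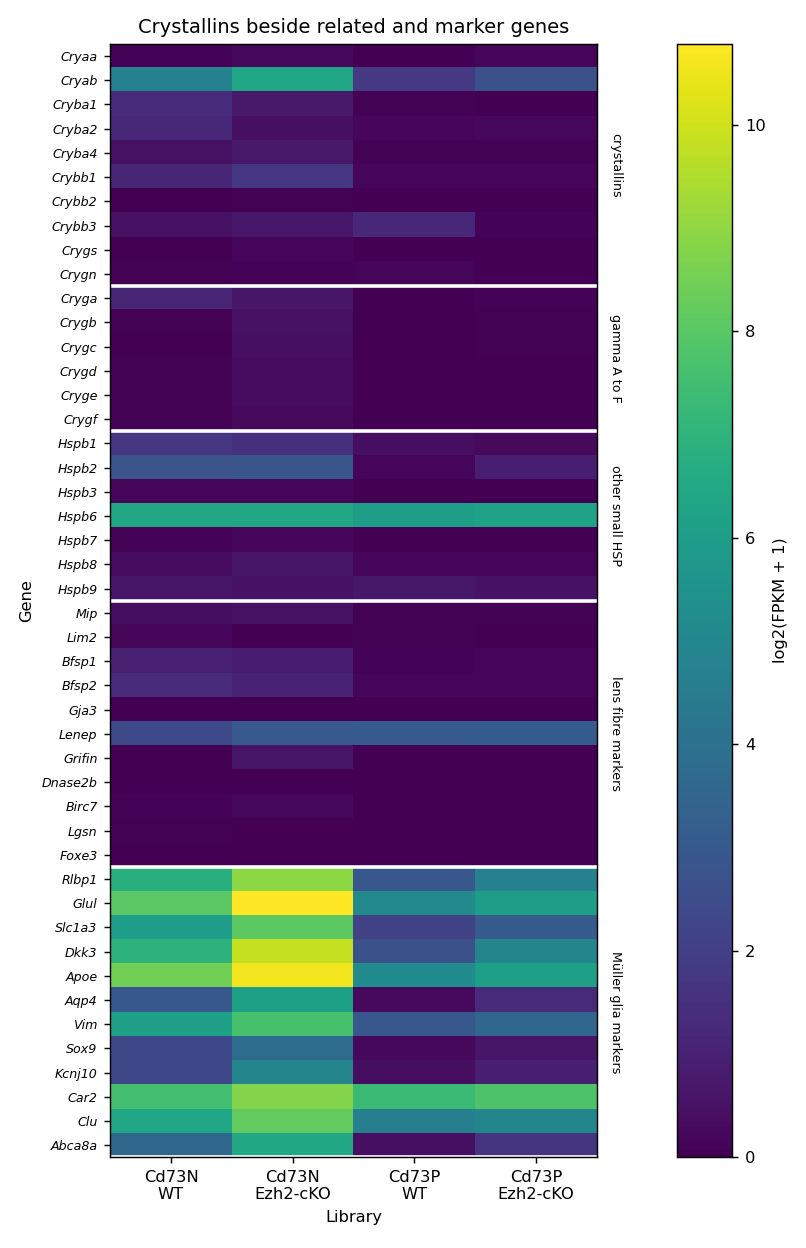
Level as log2(FPKM + 1), by colour, of the 10 crystallins, the gamma A to F crystallins, 7 other small heat shock proteins (HSP), 11 lens fibre markers and 12 Müller glia markers in the 4 libraries. Cryab and the Müller glia markers are brightest in Cd73N Ezh2-cKO, while lens fibre markers other than Lenep are at 1.48 FPKM or below.

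Factors known to regulate crystallin genes in the lens were read as a list of 17. In Cd73N, 3 were past the threshold upward in Ezh2-cKO and 1 downward, against 7.18% and 1.71% of all genes. The 3 were Sox2 (12.1 to 55.3 FPKM, log2 difference 2.11), Pax6 (20.4 to 63.6 FPKM, 1.59) and Maf (1.85 to 5.10 FPKM, 1.10), and the 1 was Otx2 (388 to 224 FPKM, -0.79). In Cd73P, Sox2 was past the threshold upward, from 0.55 to 2.02 FPKM, and Maf, Prox1 and Six3 were past it downward. The shares of all genes there were 2.26% and 2.38%. Maf thus differed in direction between the fractions, with 1.16 FPKM in Cd73P WT and 0.26 FPKM in Cd73P Ezh2-cKO. Maf, Sox2, Six3, Pitx3 and Hsf4 were named after their values were seen. The lens factors Pitx3 and Foxe3 were at 0.046 FPKM or below in every library. Hsf4, the heat shock factor of the lens, was at 0.079 and 0.43 FPKM in Cd73N and was listed at 0 in Cd73P.

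The mean profile of the 5 crystallins that reached 1 FPKM was also matched with other genes. The closest were Tceal8, Gnaq, Muted, Hrsp12 and Megf9, at distances of 0.0418 to 0.080, and Tceal8 was at 42.1 and 46.5 FPKM in Cd73N and at 18.3 and 17.8 FPKM in Cd73P. These genes are not the ones closest to Cryab, and they differed little between the genotypes. The mean joined members of opposite direction between genotypes in Cd73N, from 1.63 for Cryab to -0.78 for Cryba2. It therefore need not describe any single member.

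Read placement was checked for paralogs, since crystallins are a gene family. In the longest coding transcript of each of the 10 genes, none of the windows of 32 bases lay at more than 1 place of the mm9 genome, leaving aside windows that cross an exon join. For the gamma A to F crystallins, which are not among the 10, 17.3% to 62.5% of windows did.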

How the data were processed

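Poly(A) RNA of 4 sorted samples was sequenced as 36-base single-end reads. Per the submitters' processing notes and the study's methods, the authors used bcl2fastq 1.8.4, TopHat2 2.0.8b on mm9 (up to 50 hits per read) and Cufflinks 2.1.1 on RefSeq genes. The deposited values are FPKM with a lower and an upper bound and a status, and were not scaled between libraries. Total counts were not used here, so absolute depth is unknown. Of 23021 rows per library, 294 to 302 were not OK and were left out of a comparison. Rows sharing a symbol were summed, and 728 small RNA symbols were left out. SE was computed with the width of the bounds taken as 4 SE. Where the lower bound was above 0, fragments were taken as the squared ratio of the centre of the bounds to that SE. The file starts were compared with GENCODE on mm9: of 21166 symbols, 10206 were equal after adding 1 and 638 as listed. Coordinates are given with 1 added.

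Groups came from sample titles. Because there was 1 library per group, differences were described without a test, beside the share of all genes past the same threshold. The crystallins were chosen by name and not by their values. Earlier results of these data were known when they, the gene lists, the markers and the alternatives were chosen. List genes were named by level (at most 4 per list, FPKM of at least 10 or past 1.5-fold), all lens markers could be named, and the 5 nearest genes came from symbols with 1 row that reached 10 FPKM in a library. The calculation was tested on simulated data with counting error only, which says nothing of variation between libraries. For Ezh2-cKO over WT in Cd73N over 21704 genes, 200 of 200 changes of 2-fold, placed in genes with FPKM of at least 10, were recovered. This says nothing of genes below that level, where every crystallin but Cryab lay in Cd73N, and Cryab too in Cd73P. A further lens marker was left out of its list and is not reported here. Alternatives were other pseudocounts, scalings, thresholds and filters. Python 3.11.15, numpy 2.4.6, pandas 2.3.3 and matplotlib 3.10.9 were used.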

Additional observations from a re-analysis of the deposited data

Results flagged for a closer look

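In these results the log2 differences had opposite signs in the groups compared. None of the differences between them was tested, because each group held 1 library. Crybb3 between fractions was the only case in which both values were past the threshold, and in the others at least 1 of the 2 was short of it. For Crybb3, Ezh2-cKO over WT was 0.21 within Cd73N but -1.11 within Cd73P (log2), which are -1.32 apart. Read the other way, Cd73P over Cd73N was 0.72 in WT and -0.60 in Ezh2-cKO, the same -1.32. For Cryba2 the genotype values were -0.78 and 0.05 in the same order, 0.83 apart. Crybb1 had 0.52 and -0.0043, a difference of -0.52, and its neighbour Cryba4 had 0.28 and -0.0019, a difference of -0.28. Their Cd73P values had lower bounds of 0, so the sign there carries no weight, and the bounds of Cryba2 in Cd73P and of Crybb3 in Cd73N overlapped between the genotypes. Crygn had 0.05 and -0.15, a difference of -0.20, and between fractions 0.07 in WT and -0.12 in Ezh2-cKO, with every lower bound at 0.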

How the results depend on the processing

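With 1 library per group no replicate could be left out. No paired analysis was possible because the labels carry no replicate numbers and no comparison comes from a test. Cryab kept its direction in all 10 alternatives of each comparison, of which only the scalings could turn it. For the genotypes, the Cryab difference lay between 1.5 and 1.78 in Cd73N and between 0.49 and 1.16 in Cd73P. Its Cd73P value fell short of the threshold with a pseudocount of 5 and at 2-fold. The FPKM sum shifted differences by 0.152 and -0.059 between genotypes in Cd73N and Cd73P and by 0.42 and 0.21 between fractions in WT and Ezh2-cKO, and the median ratio by 0.062, 0.043, 0.337 and 0.272. No sign of a crystallin past the threshold turned. Only the scalings could have turned one, because a pseudocount keeps the order of 2 values and the thresholds and filters leave each value as it is. Values near 1 FPKM depend on the pseudocount by construction, and the filters leave fewer genes. The setting without a pseudocount kept only genes with at least 1 FPKM in both libraries. It dropped Cryba1 and Cryba2 from the genotype comparison in Cd73N and Crybb3 from that in Cd73P. In the fraction comparisons it kept Cryab alone. Its counts therefore say nothing of the dropped genes. For the scalings the cause was not tested.

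For the genotypes in Cd73N, crystallins higher numbered 5 with a pseudocount of 0.1, 2 after scaling by the FPKM sum and 2 without a pseudocount. The 2 were Cryab and Crybb1 each time. The shares of all genes higher were 15.0%, 9.39% and 11.8% in these settings, beside 7.18% with the main settings. Crystallins lower numbered 0 with a pseudocount of 5, at 2-fold and without a pseudocount, and 1 after either scaling or when bounds were required not to overlap. The shares of all genes lower were 0.816%, 0.327% and 3.72% in the settings that gave 0. They were 1.27% after scaling by the median ratio, 0.908% by the FPKM sum and 1.68% with the bounds. The crystallin median was 0.60 with a pseudocount of 0.1, 0.037 with 5, -0.036 with FPKM of at least 1 in 1 library (4 genes) and 1.25 without a pseudocount (2 genes). In Cd73P, crystallins higher numbered 2 with a pseudocount of 0.1, 0 with 5 and 0 at 2-fold. Crystallins lower numbered 2 with a pseudocount of 0.1, 0 with 5 and 0 without one. The shares of all genes, in the same order, were 6.59%, 0.839% and 0.746% higher and 7.89%, 0.604% and 4.8% lower. The crystallin median was -0.10 with the FPKM filter (2 genes) and 1.16 without a pseudocount (1 gene).

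For the fractions in WT, crystallins higher in Cd73P numbered 0 with a pseudocount of 5, at 2-fold and without a pseudocount, and crystallins lower numbered 5 with a pseudocount of 0.1, 1 with 5 and 1 without one. The shares of all genes, in the same order, were 5.67%, 4.95% and 18.8% higher and 37.2%, 18.3% and 39.9% lower. The crystallin median was -1.13 with a pseudocount of 0.1, -0.055 with 5, -1.05 with the FPKM filter (5 genes) and -3.43 without a pseudocount (1 gene). In Ezh2-cKO, crystallins lower numbered 8 with a pseudocount of 0.1, 1 with 5, 4 after scaling by the median ratio (Crybb3 was then at -0.58), 2 at 2-fold, 2 with the FPKM filter and 1 without a pseudocount. The median was -1.67 with a pseudocount of 0.1, -0.10 with 5, -2.64 with the filter (2 genes) and -3.94 without a pseudocount (1 gene).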

Other observations

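Crystallins outside the 10 were also listed. Crym, which encodes the thyroid hormone binding protein mu-crystallin, had the highest level of the 7 genes listed as enzyme-like or non-lens crystallins. It was at 150 FPKM in Cd73N WT, 392 in Cd73N Ezh2-cKO, 4.84 in Cd73P WT and 19.1 in Cd73P Ezh2-cKO. Its genotype difference was 1.38 (SE 0.0239) in Cd73N and 1.79 (SE 0.11) in Cd73P, and it was the only one of the 7 past the threshold in either. Crym and Cryab thus shared their order across libraries, while Cryz, the quinone reductase zeta-crystallin, was at 19.6 and 18.2 FPKM in Cd73N and at 5.90 and 4.03 FPKM in Cd73P.

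The 6 gamma A to F crystallins of chromosome 1 summed to 1.36 FPKM in Cd73N WT, 2.12 in Cd73N Ezh2-cKO, 0 in Cd73P WT and 0.17 in Cd73P Ezh2-cKO. Cryga was at 1.15 FPKM in Cd73N WT and 0.57 FPKM in Cd73N Ezh2-cKO. The other 5 were at most 0.054 FPKM in Cd73N WT and between 0.22 and 0.39 FPKM in Cd73N Ezh2-cKO. Their shared sequence makes the split between them uncertain. None of the 6 was past 1.5-fold between genotypes on the log2(FPKM + 1) scale, which understates the change of low genes.

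Of 12 large heat shock chaperones, 1 was higher and 1 lower in Cd73N Ezh2-cKO: Bag3, a partner of small heat shock proteins named after its values were seen, went from 1.86 to 3.55 FPKM, and Hspa5, the chaperone of the endoplasmic reticulum, from 190 to 123 FPKM. Hspa8 had the highest level, at 928 and 658 FPKM in Cd73N. In the genotype comparison of Cd73N, markers past the threshold upward and downward were 4 and 0 of 6 for astrocytes, 0 and 7 of 11 for bipolar cells, 2 and 0 of 7 for amacrine cells, and 2 and 1 of 10 for retinal ganglion cells. They were 0 and 0 of 5 for horizontal cells, 0 and 5 of 13 for rods, 3 and 0 of 9 for cones, and 2 and 0 of 8 for endothelial cells and pericytes. They were 4 and 0 of 8 for microglia and 0 and 0 of 10 for pigment epithelium and ciliary cells. Over all genes the shares were 7.18% upward and 1.71% downward. The pigment epithelium and ciliary markers summed to 11.65 and 11.85 FPKM in Cd73N and to 62.95 and 50.71 FPKM in Cd73P (WT, Ezh2-cKO). In Cd73P, 3 of the 10 were past the threshold downward in Ezh2-cKO, against 2.38% of all genes. Toward Cd73P, 7 were past it in WT and 5 in Ezh2-cKO, against 9.07% and 8.4%. Their part in the Crybb3 values was not tested.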
